A study of Mus musculus with 108 samples.

Results

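Oxidative phosphorylation is carried out by the complexes of the inner mitochondrial membrane, and 94 of the 18193 mouse genes measured belonged to the nuclear gene set for it examined here. A gene entered the set when its symbol began with Nduf, Uqcr or Atp5, or was Sdha to Sdhd or Cox4 to Cox8 with their suffixes, and when it had a probe set naming no other gene; the probe set with the highest mean signal over all arrays stood for the gene. The symbols brought in 34 complex I subunits, 4 complex II subunits, 8 complex III subunits, 17 complex IV subunits, 17 ATP synthase subunits and the pair Ndufa4 and Ndufa4l2. They also brought in 8 complex I assembly factors (Ndufaf genes) and 4 complex II assembly factors (Sdhaf genes), which help build a complex without being part of it, so the set is wider than subunits alone.

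Affymetrix arrays had been hybridised with RNA from 6 tissues (lung, liver, testis, heart, kidney and whole brain) of 6 inbred strains, with 3 arrays for each strain in each tissue. By their titles, C57BL/6J kidney, liver and testis came from different animals than C57BL/6J brain, heart and lung. For 129S2 the animals of these tissue groups overlapped in part, and each other strain gave all tissues from the same 3 animals. Between those groups of tissues, C57BL/6J tissue and animal set therefore cannot be told apart. Charles River had supplied 129S2, and the Jackson Laboratory had supplied A/J, AKR/J, C3HeB/FeJ, C57BL/6J and DBA2/J, so for 129S2 strain and supplier cannot be told apart. All animals were untreated males aged 11 to 14 weeks, and the RNA had been extracted with TRIzol. The question addressed was which genes differ among strains within a tissue.

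Complex I takes electrons from NADH and complex II from succinate, complex III passes them to cytochrome c, and complex IV hands them to oxygen. The protons moved along the way drive ATP synthase. Several complex IV subunits exist in alternative forms, one found in most tissues and others found mainly in heart and skeletal muscle or in the germ cells of the testis.

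Signal is given on the log2 scale throughout, so a difference of 1 is a factor of 2, and a strain's mean ± SD has n = 3 arrays. Fit between array and labelled tissue was complete, since the tissue's own marker genes had the highest mean of the 6 tissue marker lists on every array, and replicate arrays correlated at 0.980 to 0.998 over genes. Array medians were nearly equal within a tissue but ran from 4.95 in liver to 6.83 in lung, so levels are compared between strains within a tissue, and levels of one gene across tissues are only described. Whole tissues were measured, in which fewer cells of a type and less RNA per cell cannot be told apart.

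The brain arrays labelled 129S2 2 and AKR/J 2 stood apart from the other arrays of their labels. On a second probe set for the complex III gene Uqcr10 (1434340_at), the arrays labelled 129S2 1 and 3 read 8.92 and 9.03 but the array labelled 129S2 2 read 7.39, while those labelled AKR/J 1 and 3 read 5.32 and 5.19 but AKR/J 2 read 8.26. The brain counts are therefore given with and without both arrays. In lung, the 3 C3HeB/FeJ arrays differed widely in heart muscle markers, described with the lung results.

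Ranges of strain means in the set were mostly small. The median range of the 6 strain means (highest minus lowest) was 0.132 for members against 0.192 for all genes in brain, 0.180 against 0.242 in testis, 0.191 against 0.277 in heart, 0.198 against 0.264 in liver and 0.225 against 0.281 in kidney. Lung was the exception, at 0.309 against 0.265, and it was also the tissue in which replicate arrays of a strain varied more for members (median residual SD 0.138) than for all genes (0.118). Elsewhere replicates varied less for members: 0.056 against 0.091 in brain, 0.085 against 0.131 in heart and 0.051 against 0.107 in kidney. In liver it was 0.063 against 0.121 and in testis 0.061 against 0.100. A range of strain means contains this replicate spread, so the smaller ranges alone do not show smaller strain effects.

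A moderated F test over the 6 strains (limma, Benjamini-Hochberg over all 18193 genes, adjusted p under 0.05) called 19 of the 94 members in brain, where 23.1% of all genes were called, and 20 without the 2 brain arrays named above. It called 52 in kidney (46.1% of all genes), 34 in testis (40.5%), 24 in liver (31.6%), 13 in heart (21%) and 11 in lung (32.5%). Leaving out 1 array moved the heart count to 8, 6 and 8 (without DBA2/J 1, 2 and 3) or 21 (without 129S2 2), and the lung count to 57 (without C3HeB/FeJ 2) or 7 (without C3HeB/FeJ 1 or A/J 3). With an intensity trend and a robust prior in limma the counts were 35 in brain, 40 in liver and 53 in testis. Shares of all genes are not given for these settings or for the left-out arrays. The altered counts therefore cannot be set against the percentages above. With the settings first given, the members' share lay above that of all genes only in kidney, and the difference between the shares was not tested. Called members whose strain means spanned at least 0.5 numbered 9 in testis (16.2% of all genes), 8 in kidney (18.7%), 8 in lung (17.2%), 6 in liver (18.4%), 5 in heart (14.2%) and 4 in brain (7.07%). Those spanning at least 1 numbered 3 in kidney (5.07%), 3 in lung (5.21%), 2 in testis (4.09%), 1 in liver (5.66%) and 0 in heart (3.57%) and brain (1.64%).

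Over the 564 pairs of a member and a tissue, 153 were called (32.5% over all genes), 40 of them spanned at least 0.5 (15.3%) and came from 18 genes, and 9 spanned at least 1 (4.21%). The members' own shares were 27.1%, 7.09% and 1.6%, and the difference was not tested. Complex I assembly factors gave 14 of those 40 pairs, from 48 pairs tested, complex IV 13 from 102 and complex I subunits 10 from 204. Ndufa4 and Ndufa4l2 gave 2 from 12, and complex II assembly factors 1 from 24. No called pair of an ATP synthase, complex II or complex III subunit reached 0.5, out of 102, 24 and 48 pairs. On their brightest probe sets 20 members were called by the F test in no tissue, with 15 of their 120 limma F tests at an unadjusted p under 0.05. The share of all genes called in no tissue is not given here. Those 20 members included Atp5a1 and Atp5b (the alpha and beta subunits of ATP synthase), Sdha (the flavoprotein of complex II), Uqcrfs1 (the Rieske iron-sulfur protein of complex III), Cox4i1 and Ndufs1.

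**Figure D1:**
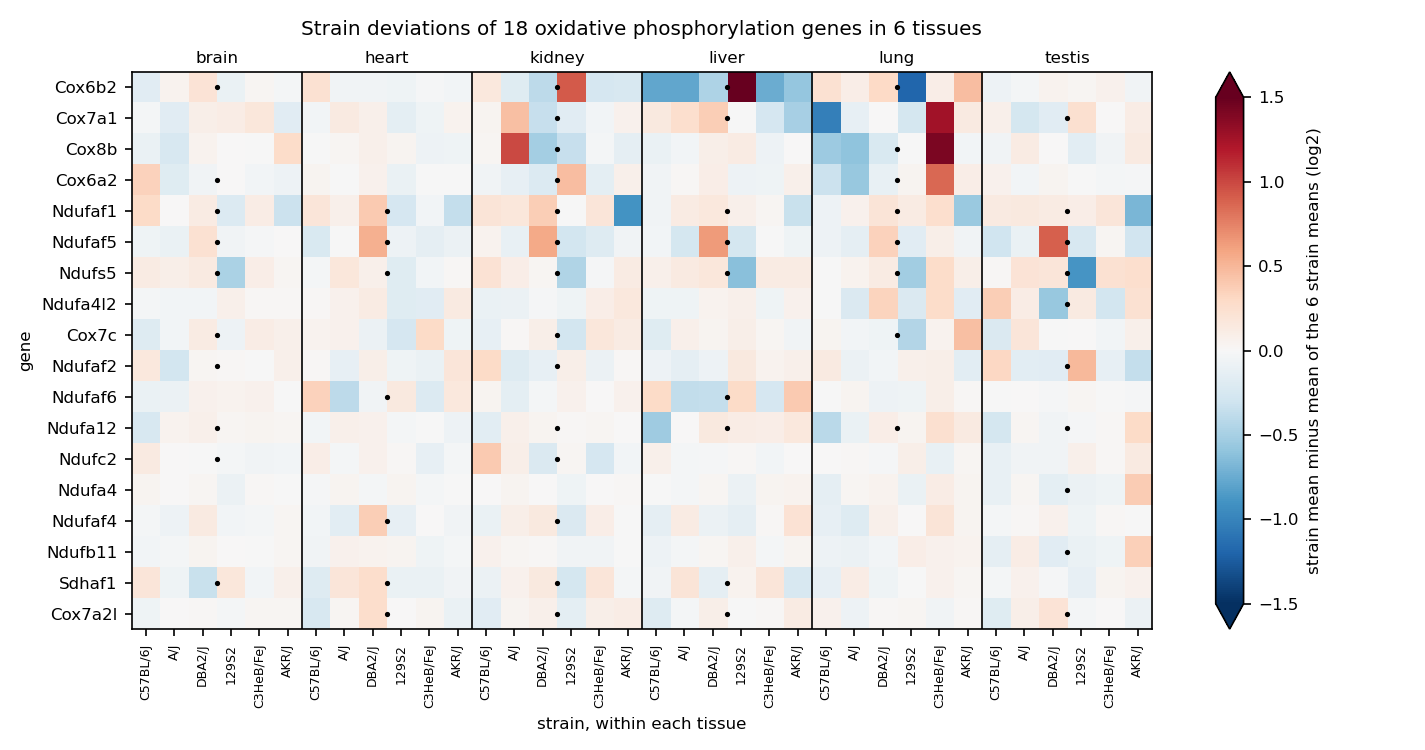
Deviation of each strain mean from its tissue mean (log2, colour scale capped at 1.5 either way) for the 18 members called with a range of at least 0.5 in some tissue. Other members named in the text are not drawn. Each tissue has 1 block of 6 strains, with a dot in the middle of a block where the gene passed the limma F test. Ndufaf1, Ndufaf5 and Ndufs5 carry a dot in all 6 tissues, and Cox6b2 in liver has the widest span.

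Complex I, the assembly factors. Ndufaf1, a chaperone needed to assemble the membrane arm of complex I, was low in AKR/J. In kidney the 3 AKR/J arrays read 8.36, 8.37 and 8.27 (mean 8.33 ± 0.0553) and the other 15 arrays ran from 9.15 through a median of 9.41 to 9.63. The groups did not overlap, and AKR/J lay 1.08 below the mean of the other strains in a 2.11-fold difference (log2 difference -1.08, SE 0.0487, limma adjusted p = 2.97e-11). In testis the AKR/J arrays read 7.01, 7.05 and 7.09 against 7.80, 7.84 and 8.05 as lowest, median and highest of the others.
The testis groups were again separate, with an AKR/J difference of -0.82 (SE 0.0477). AKR/J also lay apart from all other arrays in lung (difference -0.67, SE 0.0782) and in liver (-0.40, SE 0.0541). In brain the groups overlapped (-0.39, SE 0.0603), because the array labelled AKR/J 2 read 8.63 beside 8.39 and 8.33 for AKR/J 1 and 3. Without the 2 brain arrays the range of Ndufaf1 in brain widened from 0.61 to 0.70. In heart AKR/J again had the lowest mean, but the strain farthest from the rest was DBA2/J, higher by 0.47 (SE 0.0856, limma adjusted p = 0.00207), with arrays from 9.60 to 9.73 against 8.71 to 9.54.

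Ndufaf5, which modifies a complex I core subunit during assembly, was high in DBA2/J in every tissue. In testis the DBA2/J arrays read 7.82, 7.88 and 7.80 (mean 7.83 ± 0.0451), and the other arrays ran from 6.46 through 6.76 to 7.04, so the groups were separate by more than the spread of any strain. The difference was 1.08 (SE 0.0728, 2.12-fold, limma adjusted p = 5.85e-09). Elsewhere DBA2/J exceeded the other strains by 0.76 (SE 0.0927) in liver, 0.68 (SE 0.0519) in kidney, 0.65 (SE 0.0864) in heart, 0.41 (SE 0.0749) in lung and 0.27 (SE 0.0448) in brain. In each of the 6 tissues all 3 DBA2/J arrays read above the other 15. Such a separation of 1 strain on the same side in 6 tissues held for 1 member and for 55 genes in all, 0.302% of all genes. Separation in at least 5 tissues held for 2 members (0.813% of all genes), in at least 4 for 4 (1.79%) and in at least 3 for 5 (3.91%), namely Ndufaf5, Ndufa12, Ndufaf1, Ndufs5 and Cox5a.

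The other assembly factors differed in fewer tissues. Ndufaf2, a complex I assembly factor related to a subunit of the mature enzyme, was highest in 129S2 testis (arrays 9.57, 9.46 and 9.58, difference 0.58, SE 0.0559), with C57BL/6J next (mean 9.36 ± 0.0962) and AKR/J lowest (8.70 ± 0.16). The same gene was highest in C57BL/6J in kidney (difference 0.35, SE 0.0473) and lowest in A/J in brain (-0.33, SE 0.0482), so the strain that stood out changed with the tissue. Ndufaf6, whose loss in patients impairs complex I assembly, was lowest in A/J heart (arrays 7.67, 7.71 and 7.85 against 7.86 to 8.66, difference -0.47, SE 0.0912). In liver it split the strains, with C57BL/6J, 129S2 and AKR/J means of 8.37, 8.38 and 8.49 and A/J, DBA2/J and C3HeB/FeJ means of 7.73, 7.74 and 7.84 (limma adjusted p = 2.32e-06). The lowest array of the first 3 strains, at 8.29, lay above the highest of the other 3, at 7.94.
Ndufaf7, a methyltransferase acting on a complex I core subunit, was highest in C57BL/6J brain (difference 0.32, SE 0.0444), lung (0.20, SE 0.0541) and testis (0.27, SE 0.0511). Ndufaf3 and Ndufaf4, partner proteins that act early in assembly, were highest in DBA2/J heart, by 0.28 (SE 0.0577) and 0.44 (SE 0.0863). Ndufaf4 lost its call in the F test without DBA2/J 1 (limma adjusted p = 0.0815) or DBA2/J 2 (0.102). Ndufaf8 was called in no tissue. Ndufaf1, Ndufaf2, Ndufaf5 and Ndufaf6 each rested on a single probe set.

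**Figure D2:**
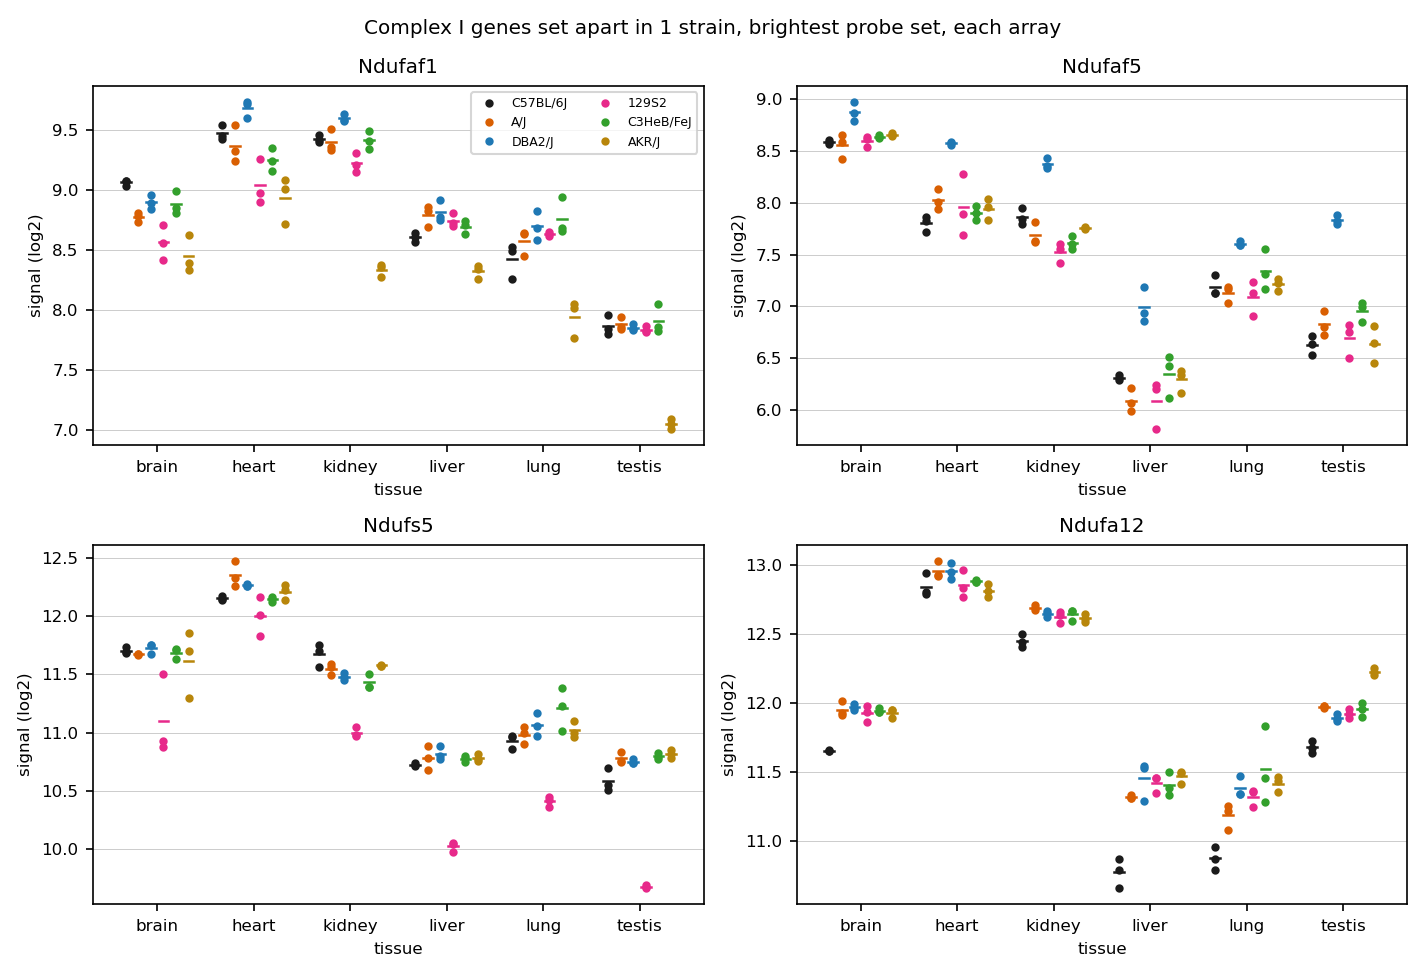
Signal (log2) of Ndufaf1, Ndufaf5, Ndufs5 and Ndufa12 on each of the 18 arrays of each tissue, with points for arrays and bars for strain means. On these probe sets AKR/J is lowest for Ndufaf1 in kidney and testis, DBA2/J highest for Ndufaf5 in all 6 tissues, and the 129S2 mean lowest for Ndufs5 in all 6.

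Complex I, the subunits. Ndufs5, a small accessory subunit on the intermembrane side of complex I, was low in 129S2. The testis arrays read 9.67, 9.69 and 9.68 in 129S2 (mean 9.68 ± 0.0102) and 10.51, 10.77 and 10.85 as lowest, median and highest elsewhere, a difference of -1.07 (SE 0.0407, 2.10-fold, limma adjusted p = 2.63e-12). Separate groups were also seen in liver (-0.75, SE 0.0501), lung (-0.63, SE 0.0645) and kidney (-0.54, SE 0.0451). In heart the difference was smaller and the groups overlapped (-0.22, SE 0.0632, limma adjusted p = 0.0389), and the F test there lost its call when any 1 of 16 of the 18 arrays was left out (limma adjusted p at most 0.114).
In brain, where the difference was -0.58 (SE 0.104), the array labelled 129S2 2 read 11.50 beside 10.93 and 10.88 for 129S2 1 and 3, and AKR/J 2 read 11.29 beside 11.86 and 11.70. The brain range of Ndufs5, DBA2/J minus 129S2, was 0.62 with all arrays (limma adjusted p of the F test 0.0132). Without those 2 arrays DBA2/J minus 129S2 was 0.82 (F test 1.46e-07). The call was lost without 129S2 1 (0.0967) or 129S2 3 (0.104). Another probe set, 1416495_s_at, names both Ndufs5 and its pseudogene Ndufs5-ps and so was left out of the set. On it 129S2 differed by -0.39 in testis, by -0.16 to -0.19 in brain, kidney and liver, by -0.07 in lung and by 0.20 in heart, so both the size of the 129S2 difference and, in heart, its direction depend on which probe set is read.

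Ndufa12, an accessory subunit of the matrix arm and a paralog of Ndufaf2, was low in C57BL/6J on 1418814_s_at, its brightest probe set over all arrays. The liver arrays read 10.67, 10.79 and 10.88 in C57BL/6J (mean 10.78 ± 0.106) against 11.30 to 11.54 elsewhere, a difference of -0.64 (SE 0.0609). C57BL/6J was also below all other arrays in lung (-0.49, SE 0.0811), testis (-0.31, SE 0.0361), brain (-0.29, SE 0.0341) and kidney (-0.19, SE 0.0388).
The probe sets of this gene disagreed. A second probe set, 1455806_x_at, was highest in C57BL/6J in brain, heart, kidney, lung and testis, with ranges of 0.48, 0.74, 0.54, 0.44 and 0.68, and with the mean over probe sets the liver difference between the same highest and lowest strains was 0.26 and not called (limma adjusted p = 0.134). In liver 1455806_x_at was the brightest (mean 11.55), and taking it there gave a difference of 0.013 between those strains, also not called (0.259). Another probe set, 1433513_x_at, had C57BL/6J lowest in liver (-0.38, limma adjusted p = 0.00479), lung (-0.49), testis (-0.15), brain (-0.19) and kidney (-0.06). In testis AKR/J was the strain farthest from the rest on the brightest probe set, higher by 0.34 (SE 0.0361).

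Ndufc2, an accessory subunit of the membrane arm, was highest in C57BL/6J kidney (arrays 12.93, 12.97 and 12.92 against 12.24 to 12.70, difference 0.47, SE 0.0466, limma adjusted p = 8.75e-07), and 3 of its 4 probe sets gave C57BL/6J highest there. Ndufb11, an accessory subunit encoded on the X chromosome, was highest in AKR/J testis by 0.43 (SE 0.0712), with 1 AKR/J array at 9.34 inside the range of the others and the remaining 2 at 9.72 and 9.71. Ndufa4, first described in complex I and now placed with complex IV, was also highest in AKR/J testis by 0.46 (SE 0.0778), and the groups overlapped. Its paralog Ndufa4l2, a hypoxia-induced protein, was lowest in DBA2/J testis, at 8.78, 8.91 and 8.81 against 9.09 to 9.92. That difference of -0.68 (SE 0.0497, 1.61-fold, limma adjusted p = 1.64e-08) rested on 1 probe set. Of the core subunits, Ndufs1 was called in no tissue, and Ndufv1, the NADH-binding subunit, only in kidney (range 0.22, limma adjusted p = 0.0447).

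Complex II. Among the 4 subunits, 6 of 24 tests were called, and none spanned 0.5. Sdhb, the iron-sulfur subunit, was lowest in C57BL/6J liver by 0.26 on the log2 scale (difference -0.26, SE 0.0534), with arrays from 11.94 to 12.06 below all others at 12.09 to 12.40. Sdhd, a membrane anchor, spanned 0.41 in liver and 0.35 in heart, and Sdhc, the other anchor, 0.34 in heart. Of the assembly factors, Sdhaf1, which protects the iron-sulfur subunit, changed its order with tissue. It was lowest in DBA2/J brain (7.88, 7.73 and 7.83 against 7.99 to 8.46, difference -0.40, SE 0.0512) and highest in DBA2/J heart (difference 0.32, SE 0.086), where the groups overlapped and the F test lost its call without any 1 DBA2/J array (limma adjusted p at most 0.0685) or without C57BL/6J 4 (0.051). On the brightest probe set Sdha was called nowhere, but its other probe sets did differ. In a limma fit over all single-gene probe sets, 1426689_s_at was called by the F test in kidney (range 0.30, DBA2/J highest and C3HeB/FeJ lowest, adjusted p = 0.00876). That probe set, nearly as bright as the chosen one in liver (means 11.83 and 11.85), was also called in liver (range 0.28, 0.0478) and testis (0.25, 0.0209). The dimmer probe set 1433293_at was higher in C57BL/6J and DBA2/J, for example at means of 7.53 and 7.27 against 5.64 to 5.97 in lung. Its strain means spanned 0.56 in testis and 1.06 to 1.89 in the other tissues.

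Complex III. On their brightest probe sets 11 of 48 tests were called among the 8 subunits, led by Uqcr10, a small subunit, in liver (range 0.46, A/J highest and 129S2 lowest, limma adjusted p = 0.000151). Uqcrc1, a core protein, was called only in kidney (range 0.25), and Uqcrfs1 nowhere. The widest strain difference found on any probe set of the 94 genes belonged to a dimmer probe set of Uqcr10, which the choice of the brightest one had set aside. On 1434340_at in kidney, A/J read 6.29, 5.98 and 6.25, AKR/J 6.28, 6.15 and 6.26, and the 12 arrays of the other 4 strains ran from 10.24 through 10.70 to 10.84. Low and high groups were 4.40 apart on the log2 scale and had no overlap.

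The same split was present in the other tissues, as a log2 difference of 4.43 in testis, 4.08 in liver, 3.50 in lung, 3.37 in heart and 3.16 in brain. The A/J and AKR/J arrays had medians of 4.74 in testis, 5.10 in liver, 5.52 in lung and 5.27 in heart, near or below the array medians of those tissues, so no fold is given. Only in brain did the groups overlap, through the arrays labelled AKR/J 2 and 129S2 2. In a limma fit over all single-gene probe sets, its ranges of 3.81 to 4.71 had adjusted p-values down to 5.12e-19. The probe set 1434341_x_at split the strains in the same direction by 3.96 in kidney, 2.76 in liver, 1.77 in brain, 1.42 in lung, 1.29 in heart and 1.09 in testis. The brightest probe set, 1424364_a_at, did not: the other 4 strains minus A/J and AKR/J gave -0.31 in liver and -0.13 in kidney on it, and the groups overlapped in kidney. In liver, where this probe set was called, the A/J and AKR/J arrays (11.57 to 11.72) lay above those of the other strains (11.17 to 11.51), opposite to the dimmer probe sets. The 3 probe sets therefore disagree on the size of the Uqcr10 split and, in liver, on its direction. Whether a sequence difference under the probes moves with this was not tested. Among the 101 probe sets that were not the brightest of their gene, 5 were called with a range of at least 1 in some tissue, and they belonged to Atp5g1, Cox6a2, Sdha and Uqcr10.

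**Figure D3:**
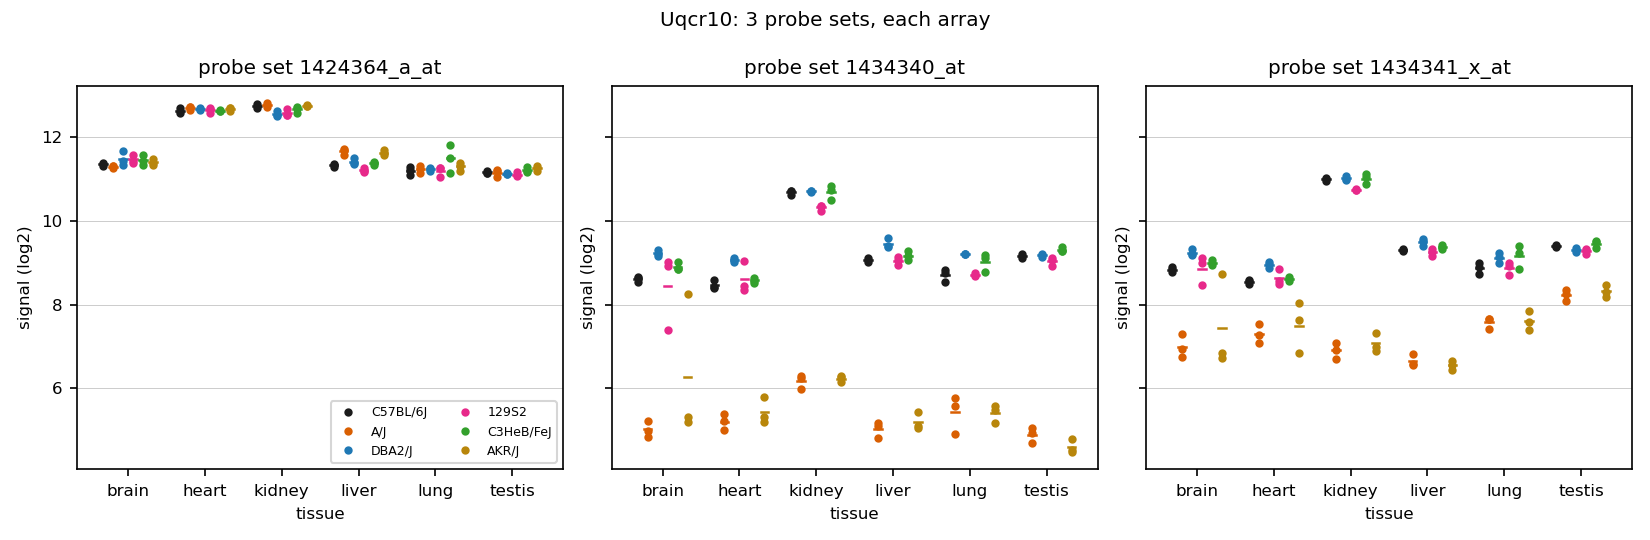
Signal (log2) of the 3 Uqcr10 probe sets on each array by tissue and strain. On 1434340_at the A/J and AKR/J arrays sit between 4.48 and 6.29 outside brain and the other strains between 8.36 and 10.84. On 1424364_a_at the strains lie closer together, with A/J and AKR/J above the other strains in liver.

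Complex IV, the germ-cell forms. Cox6b2, which replaces Cox6b1 in germ cells of the testis, showed the widest difference among the 94 brightest probe sets, and its direction changed with tissue. In liver the 129S2 arrays read 8.69, 8.78 and 8.60, and the 15 others ran from 4.37 through 4.68 to 4.96. The groups lay 4.00 apart on the log2 scale (SE 0.0837, limma adjusted p = 1.01e-15). The low readings were near or below the liver array medians of 4.95 to 5.01, close to the bottom of the scale, so no fold is given. In kidney 129S2 was higher too, at 8.31, 7.92 and 8.01 against 6.71 to 7.37 (difference 1.10, SE 0.0829).
Lung went the other way: 129S2 read 7.68, 7.82 and 7.89 and the other strains 8.76, 9.20 and 9.54 as lowest, median and highest, a difference of -1.42 (SE 0.098, 2.68-fold, limma adjusted p = 7.49e-08). In brain the strains spanned 0.37, with DBA2/J highest and the groups overlapping, a call lost without 129S2 3, DBA2/J 2, DBA2/J 3 or C57BL/6J 2 (limma adjusted p from 0.0506 to 0.105). Testis, where the gene's level was highest (mean 12.75), and heart showed no called difference, with limma adjusted p-values of 0.108 and 0.445 and ranges of 0.14 and 0.29. The 9 of 9 measured testis markers averaged 4.47 to 4.54 on the 129S2 liver arrays and 4.45 to 4.68 on all liver arrays, 4.74 to 4.90 and 4.72 to 5.20 in kidney, and 5.13 to 5.17 and 4.99 to 5.28 in lung. The gene rested on 1 probe set. Its paralog Cox6b1 was also highest in 129S2 in liver and kidney, by 0.30 (SE 0.0462) and 0.16 (SE 0.0385).

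**Figure D4:**
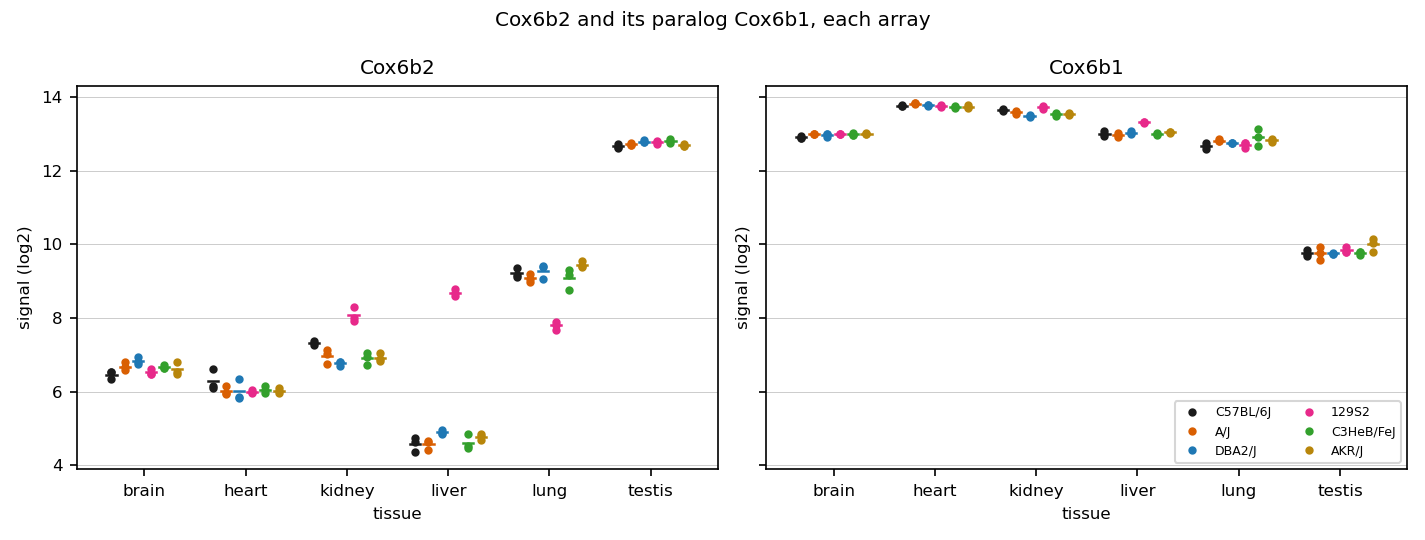
Signal (log2) of Cox6b2 on each array by tissue and strain, with bars at strain means. The 129S2 arrays are above all others in liver (8.60 to 8.78) and kidney, below all others in lung (7.68 to 7.89), and among the others in testis, brain and heart.

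The other testis forms varied little. Cox7b2 had a mean of 11.54 in testis and 3.09 to 4.04 elsewhere, and was called only in brain, at a mean of 4.04 near the bottom of the scale (range 0.35, limma adjusted p = 0.0435). That call was lost without the 2 brain arrays (limma adjusted p = 0.0583). Cox8c, at 12.65 in testis, was called nowhere. Cox7b had no single-gene probe set and is not among the 94.

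Complex IV, the muscle forms. Cox6a2, Cox7a1 and Cox8b, the forms of heart and skeletal muscle, had heart means of 13.76, 13.11 and 13.57, and none was called among strains there. In lung their highest readings were in C3HeB/FeJ. For Cox8b those arrays read 10.31, 9.23 and 11.98 against 7.80 to 9.57 in the other strains (difference 1.69, SE 0.371, limma adjusted p of the F test 0.0301). For Cox6a2 they read 10.98, 10.23 and 12.04 against 9.24 to 10.63 (difference 1.03, SE 0.267, F test 0.0482), a call lost in 19 of 26 alternatives, among them 15 in which 1 array was left out (limma adjusted p at most 0.102). Cox7a1, at 9.82, 8.61 and 11.28 against at most 9.03 elsewhere, spanned 2.29 and was not called (F test 0.059). The middle array lay within the range of the other strains for each of the 3 genes.

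Heart muscle markers, 9 of 9 measured, moved with these readings: they averaged 10.94, 9.75 and 11.98 on the C3HeB/FeJ lung arrays 1, 2 and 3 and 7.74 to 10.36 on the others. Array 3 also had the highest skeletal muscle markers (11 of 11 measured, 9.52 against 5.58 to 6.16 on the other 17 arrays) and brown fat markers (5 of 6 measured, 8.58 against 5.36 to 6.28). Their part in the result was not tested. Without C3HeB/FeJ 1 and 3, which leaves 1 C3HeB/FeJ array, the limma F test called neither Cox8b nor Cox6a2. C3HeB/FeJ then exceeded A/J by 0.73 for Cox8b, beside 2.01 with all arrays. Over all lung contrasts, 20 members were higher in C3HeB/FeJ than in the other strains (6.04% of all genes), with 0 left once both arrays were removed (0 also at an unadjusted limma p under 0.05). With array 3 alone removed the number was 3, with array 1 removed 9, and with array 2 removed 60. The median member deviated from the lung mean by 0.165 on C3HeB/FeJ 1, -0.073 on 2 and 0.423 on 3, and by -0.164 to 0.021 on the arrays of the other strains. C3HeB/FeJ 2 lay inside the range of the other strains.

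**Figure D5:**
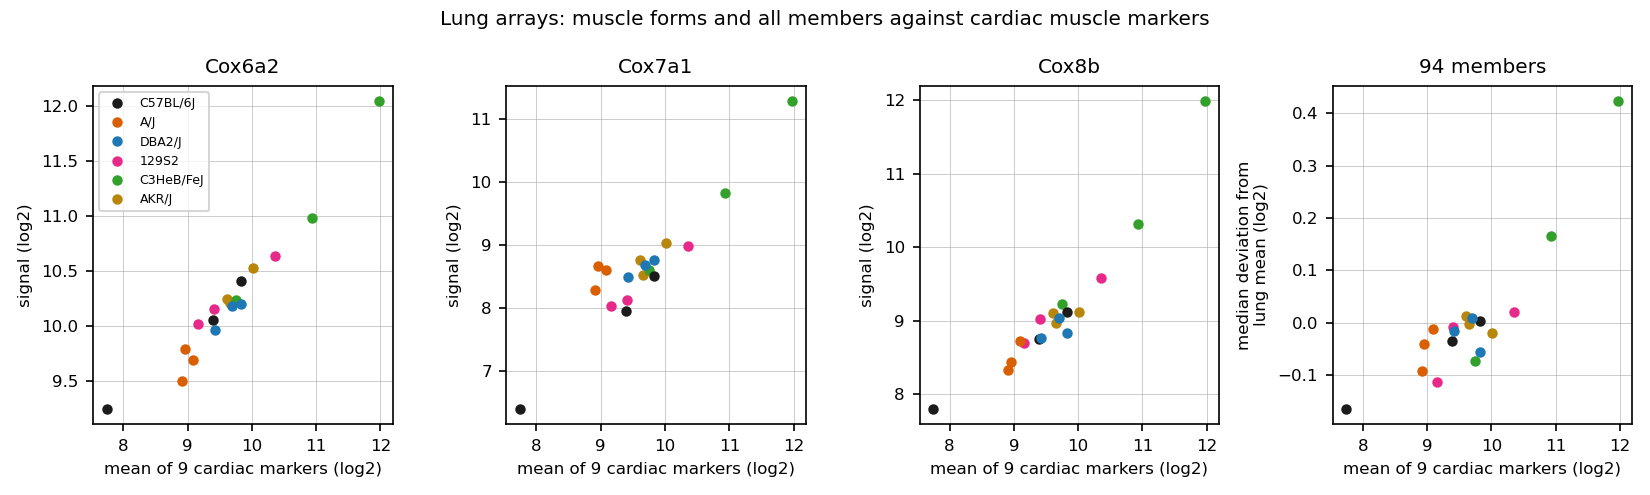
Median deviation of the 94 members from their lung means (log2) against the mean of 9 heart muscle markers (log2) on each of the 18 lung arrays. C3HeB/FeJ arrays 1 and 3 have the highest marker means (10.94 and 11.98) and the highest member medians (0.165 and 0.423); C3HeB/FeJ 2 lies among the other strains.

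In kidney Cox8b and Cox7a1 were highest in A/J. The A/J arrays read 10.08, 9.35 and 9.51 for Cox8b against 7.78 to 9.18 (difference 1.19, SE 0.258, limma adjusted p = 0.00284), and 9.23, 8.82 and 8.86 for Cox7a1 against 8.07 to 8.87 (difference 0.54, SE 0.0978). The 5 of 6 measured brown fat markers averaged 8.03, 7.61 and 7.56 on the same arrays and 6.85 to 7.88 on the other kidney arrays; their part in the result was not tested. Cox8b lost its kidney call without A/J 1 (limma adjusted p = 0.0935). Cox6a2 was highest in 129S2 kidney (8.04, 8.14 and 8.47 against 7.36 to 7.95, difference 0.56, SE 0.0981) and in C57BL/6J brain (7.95, 7.97 and 7.91 against 7.31 to 7.70, difference 0.41, SE 0.06). Both pairs of groups were separate. Cox7a1 in liver was lowest in AKR/J (-0.60, SE 0.0964), at strain means of 4.27 to 5.14, near the bottom of the scale.

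Among the widely expressed forms, Cox7a2l, which ties complex III to complex IV in supercomplexes, was highest in DBA2/J heart (11.27, 11.33 and 11.28, difference 0.31, SE 0.0865) and testis (0.25, SE 0.044), and lowest in C57BL/6J liver (-0.23, SE 0.0545) and kidney (-0.21, SE 0.0401). In heart the 129S2 array 2 reached 11.40, above the DBA2/J arrays, and the F test there lost its call when any 1 of 15 of the 18 arrays was left out (limma adjusted p at most 0.121). Cox7c, a small structural subunit, was highest in AKR/J lung (7.64 to 7.77 against 6.68 to 7.56, difference 0.54, SE 0.108). Even its brightest single-gene probe set was dim, with means of 7.24 in lung, 5.34 in heart and 4.93 in testis. The median member level was 11.20, 12.68 and 10.81 in those tissues. Cox4i2, the form of Cox4 enriched in lung, was called only in lung (range 0.38, A/J lowest), and Cox4i1 and Cox7a2 were called nowhere. Cox6a1 was called in kidney (range 0.21) and Cox8a in testis (range 0.33). The subunits Cox5a and Cox5b differed modestly. Cox5a was above all other arrays in DBA2/J in brain (0.21, SE 0.0327) and kidney (0.27, SE 0.0502), and Cox5b was lowest in AKR/J testis (-0.25, SE 0.0456).

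ATP synthase. Of the 102 tests on its 17 subunits 22 were called, none with a range of 0.5. Atp5g1, which encodes a copy of the membrane ring subunit c, was called in 4 tissues, the most of any, with ranges of 0.29 in brain, 0.34 in kidney, 0.42 in liver and 0.48 in testis. It was lowest in C57BL/6J liver (11.64 to 11.75 against 11.91 to 12.16, difference -0.35, SE 0.05) and lowest in DBA2/J testis (-0.31, SE 0.0456), and each of these strains lay below every other array. The catalytic-head subunits Atp5a1, Atp5b, Atp5c1 and Atp5d were called in no tissue.

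Each strain was next set against the mean of the other 5 in every tissue (limma, adjusted over genes and strains together). Of 564 member and strain pairs, 105 were called in kidney (19.4% over all genes), 74 in testis (17.1%), 61 in liver (12.3%), 34 in lung (12.2%), 33 in brain (7.36%; 42 without the 2 brain arrays) and 20 in heart (6.92%). Single arrays moved the brain number to 21 (without C57BL/6J 2 or 3) and the lung number to 83 (without C3HeB/FeJ 2) or 22 (without C3HeB/FeJ 1 or 3). The heart number was 35 and 31 without 129S2 2 and 3, 8 to 9 without 1 of the DBA2/J arrays, 12 and 13 without AKR/J 1 and 2, and 11 without C57BL/6J 4. In kidney 25 members were higher in C57BL/6J (10.8% of all genes), with a median difference of 0.18 among those called, and they included 12 of 34 complex I subunits and 4 of 17 ATP synthase subunits. Also in kidney, 24 were lower in 129S2 (14.8% of all genes), with a median of -0.21. The median over all 94 members was 0.060 in C57BL/6J and -0.066 in 129S2 kidney, against -0.019 and 0.023 for all genes. The first count was 15 without C57BL/6J 10 or without C57BL/6J 12, and the second was 15 without 129S2 3.

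In heart 11 members were higher in DBA2/J (7.15% of all genes) and 0 lower (3.78%; 0 also at an unadjusted limma p under 0.05). These were Ndufaf1, Ndufaf3, Ndufaf4, Ndufaf5, Sdhaf1, Sdhaf2, Sdhaf3, Cox7a2l, Sdhc, Ndufs7 and Ndufa8 (Sdhaf2, Sdhaf3, Ndufs7 and Ndufa8 did not pass the F test over strains), so 4 of 8 complex I assembly factors and 3 of 4 complex II assembly factors were among them. Their differences ran from 0.20 to 0.65, and the count was 4 without any 1 of the 3 DBA2/J arrays, 7 without A/J 1 or C57BL/6J 4, and 17 without 129S2 2. It was also 4 when the quantile normalization was repeated within heart. Over the heart arrays, heart muscle markers (9 of 9 measured) averaged 12.53 to 13.98. White fat markers (5 of 7 measured) averaged 5.91 to 7.80 and erythroid markers (5 of 8 measured) 5.95 to 7.99. Their part in the heart counts was not tested. In testis 16 members were higher in AKR/J (12.2%) and 13 lower in C57BL/6J (11.2% of all genes), but 10 without AKR/J 3 and 7 without C57BL/6J 12. In liver 13 were lower in C57BL/6J (8.24%), but 7 without C57BL/6J 10 and 8 without C57BL/6J 12. In brain C57BL/6J had 7 higher (5.14%) and 9 lower (5.94%), but 3 and 3 without C57BL/6J 3, 4 lower without C57BL/6J 2 and 5 lower without A/J 3.

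Averaged over the 6 tissues in a fit of all arrays with the animal as a random block, 58 members differed among strains (62.3% of all genes), 4 of them with a range of at least 0.5 (6.52%). Those were Ndufaf1 (0.75, AKR/J lowest, limma adjusted p = 4.36e-33), Ndufaf5 (0.72, DBA2/J highest, 4.26e-28), Ndufs5 (0.65, 129S2 lowest, 7.18e-32) and Cox6b2 (0.64, 129S2 highest, 2.70e-22). The Cox6b2 average is not a shift shared by the tissues. Its 129S2 difference was 4.00 in liver and 1.10 in kidney but -1.42 in lung, and -0.12, -0.07 and 0.03 in brain, heart and testis. Narrower averages were seen for Ndufa12 (0.37), Ndufaf2 (0.30), Ndufaf6 (0.26), Cox7c (0.26), Cox6a2 (0.25) and Cox7a2l (0.24). A strain by tissue interaction was called for 85 members (72.4% of all genes), so for most of the set the strain differences were not the same in every tissue. C57BL/6J kidney, liver and testis came from other animals than its remaining tissues, so there tissue and animal set cannot be told apart. Without the 2 brain arrays these counts were 59 and 83, and without lung array C3HeB/FeJ 3 they were 61 and 78.

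Genes around the set were counted the same way from lists of known members. Of 36 measured assembly factors of the respiratory complexes with other names, 26 were called in kidney (72.2%, against 46.1% of all genes), 20 in liver (55.6% against 31.6%), 19 in heart (52.8% against 21%), 16 in brain (44.4% against 23.1%), 14 in testis (38.9% against 40.5%) and 10 in lung (27.8% against 32.5%). Timmdc1, which also assembles complex I, spanned 1.77 in heart, 1.34 in lung, 1.32 in kidney, 1.05 in liver and 1.01 in brain with AKR/J highest and 129S2 next in each. Cox18, which inserts a complex IV subunit into the membrane, spanned 1.27 in heart and 1.13 in kidney with DBA2/J highest in both. Of 16 citric acid cycle enzymes 10 were called in testis (62.5% against 40.5% of all genes), 7 in liver (43.8% against 31.6%), 6 in kidney (37.5% against 46.1%), 4 in heart (25% against 21%) and 0 in brain and lung. In brain and lung, where 23.1% and 32.5% of all genes were called, the citric acid cycle counts at an unadjusted limma p under 0.05 were 1 and 2. Of 14 markers of mitochondrial amount 7 were called in testis (50% against 40.5% of all genes), 5 in liver (35.7% against 31.6%) and 5 in kidney (35.7% against 46.1%). In heart 3 were called (21.4% against 21%), in lung 2 (14.3% against 32.5%) and in brain 1 (7.14% against 23.1%). Regulators of mitochondrial biogenesis, 23 measured, gave 18 in kidney (78.3% against 46.1% of all genes) and 10 in liver (43.5% against 31.6%). They gave 8 in lung (34.8% against 32.5%) and 7 each in brain, heart and testis (30.4% against 23.1%, 21% and 40.5%). Carriers and partners of the chain, 16 measured, gave 11 in testis (68.8% against 40.5%) and 6 in heart (37.5% against 21%). They gave 5 each in liver and lung (31.2% against 31.6% and 32.5%), 4 in kidney (25% against 46.1%) and 2 in brain (12.5% against 23.1%). The differences between these shares and those of all genes were not tested.

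Ndufaf1 had the widest averaged range, and the genes whose 36 strain and tissue deviations were most like it were Mtr (Pearson r 0.865), Usp39 (0.862), 1110019D14Rik (0.855), Zcchc9 (0.834) and Dtx2 (0.810). These coefficients describe points that share arrays and carry no test. Of the neighbours of Ndufaf5 in the RefSeq gene order, Tasp1, Macrod2 and Flrt3 were called with DBA2/J highest in the average over tissues, with ranges of 0.36, 0.31 and 0.51. The other neighbours looked at, Esf1, Ism1 and Sel1l2, were not called (limma adjusted p = 0.384, 0.153 and 0.168). DBA2/J was highest for Esf1 and lowest for Sel1l2, and 129S2 was highest for Ism1. Over all genes 62.3% were called in this average, and the share with DBA2/J highest is not given. Around Ndufaf1 the called neighbours were Nusap1 (range 0.40, 129S2 lowest), Itpka (0.34, AKR/J lowest) and Rtf1 (0.10, DBA2/J lowest). Around Ndufs5 it was Akirin1 (0.20, 129S2 lowest), and around Cox6b2 Brsk1 (0.12, 129S2 highest) and Kmt5c (0.10, DBA2/J highest). Neighbours of members with narrower averages are not described, and whether neighbours move together was not tested.

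The 250 bases before the RefSeq start of the 4 members with an averaged range of at least 0.5 are shown as context for them (GRCm38.p6, which is the C57BL/6J sequence, so alleles of the other strains are not seen). Capitals mark CpG dinucleotides, the sites at which promoters can be methylated. Ndufaf1 lies on the minus strand (chr2:119662835-119663084), Ndufaf5 on the plus strand (chr2:140170396-140170645), and Ndufs5 (chr4:123718187-123718436) and Cox6b2 (chr7:4753095-4753344) on the minus strand.
Ndufaf1: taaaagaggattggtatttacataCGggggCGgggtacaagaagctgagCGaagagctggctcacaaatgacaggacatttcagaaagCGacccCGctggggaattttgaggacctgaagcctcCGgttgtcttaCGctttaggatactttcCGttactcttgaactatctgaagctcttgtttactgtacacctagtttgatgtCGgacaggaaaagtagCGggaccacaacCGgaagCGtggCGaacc
Ndufaf5: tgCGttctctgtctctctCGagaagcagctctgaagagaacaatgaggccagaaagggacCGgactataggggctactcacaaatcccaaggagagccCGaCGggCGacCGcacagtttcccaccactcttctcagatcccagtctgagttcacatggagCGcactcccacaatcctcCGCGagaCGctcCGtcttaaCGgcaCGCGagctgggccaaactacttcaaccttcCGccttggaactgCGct
Ndufs5: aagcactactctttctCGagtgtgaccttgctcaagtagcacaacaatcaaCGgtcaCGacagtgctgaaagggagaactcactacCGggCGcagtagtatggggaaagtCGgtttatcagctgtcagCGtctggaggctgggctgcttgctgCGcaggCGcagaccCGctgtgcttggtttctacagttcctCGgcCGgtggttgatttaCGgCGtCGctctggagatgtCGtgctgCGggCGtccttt
Cox6b2: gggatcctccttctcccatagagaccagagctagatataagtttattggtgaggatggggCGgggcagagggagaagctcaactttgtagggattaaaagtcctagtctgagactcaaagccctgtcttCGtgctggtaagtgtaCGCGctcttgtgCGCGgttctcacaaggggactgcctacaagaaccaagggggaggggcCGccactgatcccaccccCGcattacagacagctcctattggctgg
The 250 bases held 13 CpG in Ndufaf1, 17 in Ndufaf5, 18 in Ndufs5 and 8 in the germ-cell form Cox6b2. Of 94 members 78 had an entry in the promoter table, with a median of 15 CpG and 57.6% G and C over their 83 promoters, against 6 CpG and 52.4% over all 32851. These counts describe the reference sequence, and whether they move with the strain differences was not tested.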

How the data were processed

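Signal was measured on Affymetrix arrays, 3 per strain and tissue. The deposited values are on the log2 scale and, per the submitters' processing notes, were made with RMA; the sources used here do not say whether it was run over all arrays or by tissue. Of 45101 probe sets, 64 controls were left out, 34945 named 1 gene, 932 several and 9160 none in the platform annotation, and the brightest single-gene probe set by mean over the arrays stood for each of 18193 genes. The number of arrays limits the precision.

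Within each tissue limma 3.58.1 (R 4.3.3) fitted 6 strain means to 18 arrays. A moderated F test over strains and contrasts of each strain with the mean of the other 5 were adjusted by Benjamini-Hochberg over all genes, with 0.05 as threshold. One fit over all arrays, in which arrays of 1 animal shared a random block (consensus correlation 0.0174 from 4000 genes), gave the tissue average and the interaction. The fits were tested on simulated data. Replicates are individual animals by title, although the extraction protocol speaks of pools; if pooled, p-values measure the spread between pools. In kidney, 2 of the 129S2 arrays carry the same individual number in their source names.

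The members and gene lists were chosen with earlier results of these data known. The text names, per tissue, up to 8 called members by range, up to 10 for the tissue average and up to 6 for the interaction. It also names the tissue forms of complex IV and a fixed list of members of each complex. Other names were chosen after their values were seen, including the other Uqcr10, Sdha and Ndufs5 probe sets. Alternatives were the probe set rule, filters on dim probe sets, trend and robust settings of limma, quantile normalization repeated within tissue, the replicate block, the animal block and leaving out each array.

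Replicate numbers pair arrays across strains only as names, since strains are different animals.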

Additional observations from a re-analysis of the deposited data

Results flagged for a closer look

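The strain by tissue term of the limma fit over all arrays was called for 85 members, meaning that their strain differences were not the same in every tissue. For C57BL/6J the term also compares tissues taken from different animals. Among members named in the report, its adjusted p was 8.62e-46 for Cox6b2, whose 129S2 difference was positive in liver and kidney and negative in lung. The limma interaction p was 5.08e-12 for Ndufaf1, 2.25e-07 for Ndufaf5 and 2.21e-08 for Ndufs5, which on their brightest probe sets kept the same strain lowest or highest in all 6 tissues but by different amounts; on the probe set that Ndufs5 shares with its pseudogene, 129S2 was not low in heart. It was 4.56e-10 for Ndufa12, 8.76e-11 for Ndufaf2, 3.10e-12 for Ndufaf6, 0.000125 for Cox7c and 6.48e-06 for Cox7a2l. For the muscle forms of complex IV the limma adjusted p was 4.40e-06 for Cox8b, 2.70e-06 for Cox7a1 and 4.77e-06 for Cox6a2, and without lung array C3HeB/FeJ 3 it was 1.62e-05, 4.11e-06 and 1.78e-05.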

How the results depend on the processing

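Over 14 counts and 366 alternative values, 330 stayed within 1.5 times the main count, 18 were lower and 18 higher. Shares of all genes are not given for the alternatives, so their counts have no background beside them. With an intensity trend and robust prior, members called rose to 35 in brain, 40 in liver and 53 in testis, and member and strain pairs to 51 in brain, 175 in kidney, 93 in liver and 112 in testis. With the mean of a gene's probe sets the pairs were 50 in brain and 36 in heart. Leaving out genes under a mean log2 of 6 gave 32 pairs in heart; under 9 it gave 42 members in liver, 32 pairs in heart and 161 pairs in kidney. Repeating the quantile normalization within tissue gave 13 pairs in heart. Leaving out lung arrays C3HeB/FeJ 1 and 3, chosen after seeing the data, as was leaving out the 2 brain arrays, gave 7 members and 17 pairs in lung. The cause of these changes was not tested.

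Leaving out 1 array at a time gave 7 to 57 members and 22 to 83 pairs in lung, 6 to 21 and 8 to 35 in heart, 13 to 20 and 21 to 38 in brain, 27 to 37 and 64 to 82 in testis, 21 to 25 and 44 to 58 in liver, and 45 to 50 and 88 to 107 in kidney. It gave 51 to 69 members for the tissue average and 76 to 89 for the interaction.

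With the replicate number as a random block (replicate block), which shares only a number between strains, members and pairs were 52 and 106 in kidney, 35 and 76 in testis, 24 and 60 in liver, 17 and 33 in brain, 12 and 19 in heart, and 10 and 32 in lung, with consensus correlations of -0.0385 to 0.0578. With no replicate block for the animal, the tissue average gave 62 and the interaction 84. Averaging the 2 kidney 129S2 arrays of 1 individual number gave 49 members.

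Of 1487 alternative values for 58 named results, 1377 kept direction and call, 109 lost the call and 1 reversed: for Uqcr10 in liver the mean of its probe sets turned the difference to -2.06 (limma adjusted p = 3.17e-15), because the dimmer probe sets enter it. The calls lost most often were Cox6a2 in lung (19 of 26 alternatives), Cox6a2 on average (18 of 29), Cox7a2l and Ndufs5 in heart (17 of 25 each) and Cox7b2 in brain (15 of 24). The precision is limited by 3 arrays per group.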
